A study of Arabidopsis thaliana with 6 samples.

Results

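The protein-coding genes of the chloroplast genome were followed on the Affymetrix ATH1 array in Arabidopsis thaliana (ecotype Columbia 0, whole seedlings). The set took in 55 plastid genes, chosen by symbol: subunits of the photosynthetic complexes, of Rubisco and of the plastid RNA polymerase, and a few genes of other functions. A gene was read where a probe set was annotated to it alone and its gene number lay on the plastid genome in the gene table, which held for 52 of the 55. The other 3, ndhB, ycf1 and ycf2, lie in the repeated part of the plastid genome. Each of their probe sets is annotated to 2 copies, so they were not analysed here. The 52 probe sets stood among 22746 tested.

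Seedlings were 7 days old when they received 5 µM of a synthetic amide in dimethyl sulfoxide (DMSO), or DMSO alone, and RNA was taken 24 h later. The amide joins a 2-(2,4-dichlorophenoxy)propanoic acid to an aniline that bears an isobutyrylamino and a methoxy group. All plants were the same wild-type ecotype, grown in multiwell plates in half-strength Murashige and Skoog medium with sucrose in long days. Each of the 3 compound and 3 DMSO samples pooled the seedlings of 24 wells sown with 5 seeds each, and titles number them as biological replicates 1 to 3.

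The plastid genome is read by a bacterial-type RNA polymerase encoded partly in the plastid itself and by phage-type polymerases imported from the cytosol. Most of its genes are transcribed together as long units that are then cut, spliced and edited by nuclear-encoded proteins. The products sit in photosystem I, photosystem II, the cytochrome b6f complex, the ATP synthase, the NDH complex and Rubisco, each of which also needs subunits made from nuclear genes. Plastid transcripts carry no stable poly(A) tail. The 3' labelling kit primes from poly(A), so these arrays read plastid transcripts poorly. A value can also reflect internal priming or the tailed fragments of RNA decay. In whole seedlings, less plastid RNA per cell cannot be told apart from fewer green cells.

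After 24 h most plastid genes differed little between the compound and DMSO. Without regard to the replicate numbers none of the 52 passed the test. With the replicate number as a block, 6 rose and 0 fell: accD, ycf3, psbH, psaA, rbcL and psbB, by 1.36-fold to 1.64-fold. The other 46 did not pass in either fit. Of the 52, 45 had the higher mean with the compound. Their median log2 fold change (compound minus DMSO) was 0.14, against 0.01 over all tested probe sets, where 54.8% had the higher mean with the compound. The median of the 52 was not tested, and it was 0.05 without DMSO replicate 2 and 0.23 without DMSO replicate 1.

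The test was limma on the deposited log2 values over all 22746 probe sets, with a call at a Benjamini-Hochberg adjusted p below 0.05. Without the block limma called 0.343% of all probe sets and 0 of the 52. At an unadjusted p below 0.05 it had 6 of the 52, all higher with the compound, against 2.6% of all probe sets that were higher. With the block it called 3.8% of all probe sets in either direction, 1.83% as higher and 1.97% as lower. The 6 of 52 are 11.5% of the members. At an unadjusted p below 0.05 the block fit had 19 of the 52, all higher, where 8.54% of all probe sets were higher. Members share transcription units, a genome and the arrays, so they are not independent of each other.

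**Figure D1:**
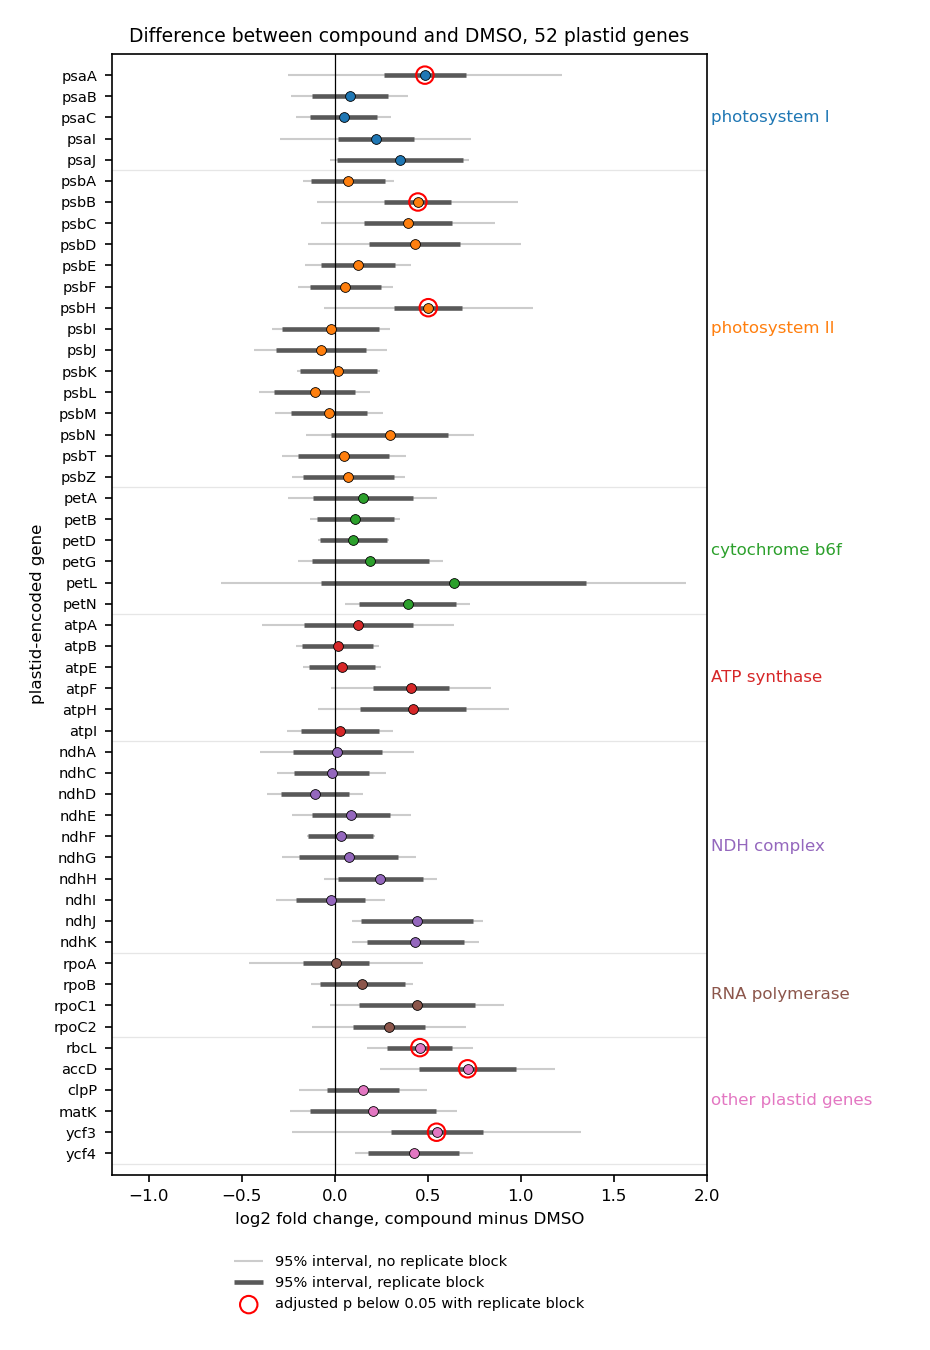
Log2 fold change (compound minus DMSO) of each of the 52 plastid genes, by complex, with 95% intervals from limma without the replicate block (thin) and with it (thick), n = 3 per group. Red rings mark the 6 genes with an adjusted p below 0.05 with the block, all to the right of 0, and 45 of the 52 points lie above 0.

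Photosystem I had 5 measured genes, of which 1 rose with the block. PsaA and PsaB form the reaction-centre pair that carries the P700 chlorophylls. The probe set of psaA (locus tag ArthCp022) read 6.48, 5.55 and 5.68 on DMSO replicates 1, 2 and 3 and 6.82, 5.98 and 6.37 on the compound arrays of the same numbers. The groups overlapped, because replicate 1 was high in both, yet each compound array exceeded its same-numbered DMSO array. The log2 fold change was 0.48 (SE 0.31, adjusted p = 0.999). With the block the SE was 0.09 and the adjusted p 0.0389, and over all alternatives the adjusted p ran from 0.0389 to 1.00. Its partner psaB read 12.98, 12.53 and 12.79 with DMSO and 12.93, 12.77 and 12.84 with the compound. These groups overlapped and the log2 fold change was 0.08 (SE 0.13). The small subunit genes psaI and psaJ had log2 fold changes of 0.22 (SE 0.21) and 0.35 (SE 0.16). PsaC, which binds the terminal iron-sulfur clusters, was read below the lower quartile of every array, and no difference can be judged there.

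For photosystem II, 2 of 15 measured genes rose with the block and 11 of 15 had the higher mean with the compound. PsbH is a small phosphoprotein of the core. Its gene (ArthCp052) read 9.08, 8.41 and 8.44 with DMSO and 9.504, 9.001 and 8.93 with the compound. Replicate 1 was again the highest of each group, and the compound array was higher in every pair. The log2 fold change was 0.50 (SE 0.23, adjusted p = 0.999 without the block, and SE 0.08, adjusted p = 0.0175 with it). The adjusted p ran from 0.0175 to 1.00 over the alternatives. PsbB is CP47, an inner antenna protein. psbB (ArthCp049) read 6.43, 5.99 and 5.88 with DMSO and 6.96, 6.44 and 6.25 with the compound. The groups overlapped, and here too the compound array was higher in every pair. The log2 fold change of psbB was 0.45 (SE 0.23, adjusted p = 0.999 without the block, and SE 0.08, adjusted p = 0.0257 with it, 0.0257 to 1.00 over the alternatives).

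The reaction-centre gene psbD, which encodes D2, and the antenna gene psbC, which encodes CP43, lay close behind without passing. psbD differed by 0.43 on the log2 scale (SE 0.24), and its adjusted p was 0.0825 with the block. psbC differed by 0.39 (SE 0.19), and its adjusted p was 0.0949 with the block. The gene of the other reaction-centre protein, D1, differed little. psbA read 9.31, 9.24 and 9.29 with DMSO and 9.29, 9.24 and 9.52 with the compound. Replicates 1 and 2 were nearly level between the groups and only compound replicate 3 stood higher. The log2 fold change of psbA was 0.07 (SE 0.10), with a 95% interval of -0.17 to 0.32. psbE and psbF, which encode the subunits of cytochrome b559, had log2 fold changes of 0.12 and 0.06. psbI, psbJ, psbL and psbM, small membrane subunits, lay between -0.11 and -0.02, and psbM was at -0.03 (SE 0.12).

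None of the 6 measured genes of the cytochrome b6f complex passed in either fit of limma, with 1 at an unadjusted p below 0.05 without the block and 1 with it. All 6 had the higher mean with the compound. petN, a small subunit, read 6.14, 6.01 and 5.64 with DMSO and 6.32, 6.32 and 6.33 with the compound. All compound values lay above all DMSO values, and the log2 fold change was 0.39 (SE 0.14, adjusted p = 0.771, and 0.129 with the block). petL, another small subunit, had the widest difference of the complex at 0.64 (SE 0.52). It read 6.70, 6.86 and 4.86 with DMSO and 6.75, 7.002 and 6.58 with the compound. DMSO replicate 3 stood alone below the other 5 arrays, and without it the log2 fold change was -0.004. petA (cytochrome f) and petB (cytochrome b6) had log2 fold changes of 0.15 (SE 0.17) and 0.11 (SE 0.10). petD was read below the lower quartile of every array.

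None of the 6 ATP synthase genes passed in either fit, with 0 at an unadjusted p below 0.05 without the block and 2 with it. atpF and atpH encode subunits of the membrane sector. atpF differed by 0.41 (SE 0.18) and atpH by 0.42 (SE 0.21), and with the block their adjusted p was 0.0546 and 0.135. atpH read 8.19, 7.43 and 7.48 with DMSO and 8.26, 8.09 and 8.01 with the compound. Here only DMSO replicate 1 reached the compound values. Of the genes of the catalytic head, atpB and atpE hardly differed. atpB read 13.77, 13.61 and 13.73 with DMSO and 13.66, 13.68 and 13.82 with the compound, a log2 fold change of 0.02 (SE 0.09, 95% interval -0.21 to 0.24). atpE was at 0.04 (SE 0.09). atpA, also of the head, was at 0.13, and atpI, also of the membrane sector, was at 0.03. Whether the differences followed the parts of the enzyme was not tested.

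**Figure D2:**
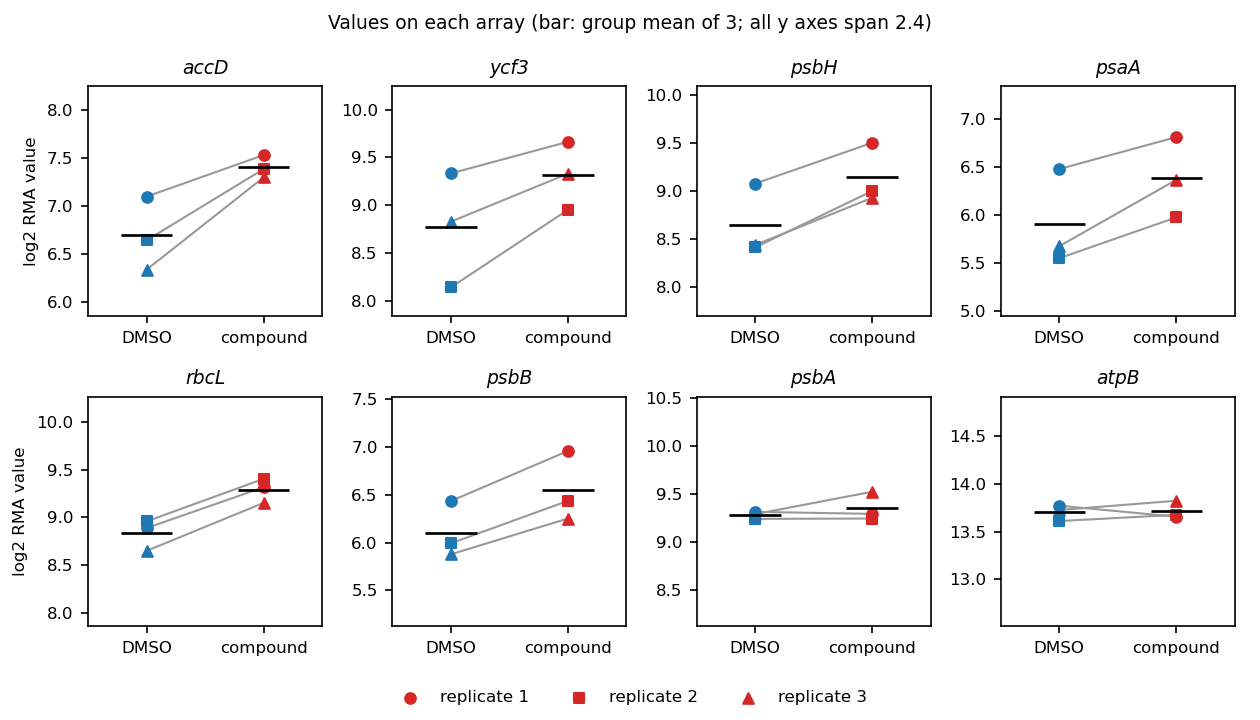
Log2 RMA value on each of the 6 arrays for the 6 genes that passed with the replicate block and for psbA and atpB, which did not. Symbols are replicate numbers, grey lines join same-numbered arrays, black bars are group means (n = 3), and each y axis spans the same range. In the 6 genes every line slopes upward, and in psbA and atpB the lines are nearly level.

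The NDH complex moves electrons around photosystem I. None of its 10 measured genes passed in either fit, with 2 at an unadjusted p below 0.05 without the block and 3 with it. ndhJ read 9.02, 8.56 and 8.70 with DMSO and 9.16, 9.37 and 9.08 with the compound. ndhK read 7.45, 6.92 and 7.15 with DMSO and 7.62, 7.64 and 7.56 with the compound. In both genes all compound values exceeded all DMSO values. ndhJ differed by 0.44 (SE 0.15) and ndhK by 0.43 (SE 0.14). Their adjusted p was 0.673 and 0.657 without the block and 0.135 and 0.0987 with it. The remaining 8 lay between -0.11 and 0.25. Among them ndhI was at -0.02 (SE 0.12). ndhD was the only member lower with the compound in all 3 pairs, at -0.11 (SE 0.11). ndhF was read near 3.2 on every array, below the lower quartile.

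Of the 4 genes of the plastid-encoded RNA polymerase none passed in either fit, with 0 at an unadjusted p below 0.05 without the block and 2 with it. rpoC1 read 7.95, 7.99 and 7.30 with DMSO and 8.30, 8.12 and 8.13 with the compound, again without overlap. Its log2 fold change was 0.44 (SE 0.19, adjusted p = 0.151 with the block), and 0.22 without DMSO replicate 3. rpoC2 was at 0.29 (SE 0.17). rpoA, which encodes the alpha subunit, was at 0.01 (SE 0.20, and 0.07 with the block), with a blocked 95% interval of -0.17 to 0.18. rpoB was read below the lower quartile of every array.

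Genes outside these complexes held the other 3 of the 6 calls. accD, which encodes the plastid subunit of acetyl-CoA carboxylase, the entry step of fatty acid synthesis, had the largest difference of all 52. accD (ArthCp031) read 7.10, 6.64 and 6.34 with DMSO and 7.53, 7.39 and 7.30 with the compound. The groups did not overlap, and they stood at 6.69 ± 0.38 and 7.41 ± 0.12 (SD, n = 3 each). The log2 fold change was 0.71, or 1.64-fold (SE 0.20, adjusted p = 0.456 without the block, and SE 0.11, adjusted p = 0.0179 with it). Over the alternatives its adjusted p ran from 0.0178 to 0.979 and its log2 fold change from 0.54 to 0.92.

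rbcL encodes the large subunit of Rubisco, the enzyme that fixes carbon dioxide and whose oxygenation reaction starts photorespiration. rbcL (ArthCp030) read 8.89, 8.96 and 8.65 with DMSO and 9.32, 9.40 and 9.15 with the compound, and the groups did not overlap. The log2 fold change was 0.46, or 1.37-fold (SE 0.12, adjusted p = 0.408 without the block, and SE 0.07, adjusted p = 0.0208 with it, 0.0208 to 0.929 over the alternatives). Its differences within the pairs were 0.43, 0.44 and 0.50. ycf3, which encodes an assembly factor of photosystem I, read 9.33, 8.14 and 8.83 with DMSO and 9.66, 8.95 and 9.33 with the compound. The groups overlapped, and the compound array was higher in every pair. ycf3 (ArthCp023) differed by 0.55 (SE 0.32, adjusted p = 0.999 without the block, and SE 0.10, adjusted p = 0.0387 with it, 0.0387 to 1.00 over the alternatives).

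ycf4, another assembly factor gene of photosystem I, stood at 5.87 ± 0.24 with DMSO and 6.30 ± 0.03 with the compound (SD, n = 3 each). The groups did not overlap, and it did not pass (log2 fold change 0.42, SE 0.13, adjusted p = 0.599, and 0.0846 with the block). clpP, a subunit of the stromal Clp protease, and matK, an intron maturase, were at 0.15 (SE 0.14) and 0.21 (SE 0.19). Without DMSO replicate 2 clpP was at 0.03, and without DMSO replicate 3 matK was at 0.003.

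Across the 52 genes the differences were small. Without the block the 95% interval lay within a 2-fold change in either direction for 46 genes. The same held for 21145 of all 22746 probe sets, so narrow intervals were not particular to the plastid genes. The 6 plastid genes whose interval reached further, all on the upper side, were psaA, psbD, psbH, petL, accD and ycf3. By group, the median log2 fold change was 0.22 for photosystem I, 0.07 for photosystem II, 0.17 for cytochrome b6f, 0.08 for the ATP synthase, 0.05 for the NDH complex, 0.22 for the RNA polymerase and 0.44 for the 6 other genes. The order of these medians was not tested, and they moved with single arrays. Leaving out 1 array, the median ranged from 0.13 to 0.38 for photosystem I, 0.02 to 0.10 for photosystem II, 0.11 to 0.26 for cytochrome b6f and 0.03 to 0.18 for the ATP synthase. It ranged from 0.0007 to 0.10 for the NDH complex, 0.10 to 0.34 for the RNA polymerase and 0.28 to 0.51 for the other genes. The lowest value came without DMSO replicate 2 in all but photosystem II (without compound replicate 3) and cytochrome b6f (without DMSO replicate 3).

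Within replicate numbers, the compound array was higher in 29 of the 52 genes for replicate 1, in 42 for replicate 2 and in 45 for replicate 3. Of all 22746 probe sets, 11010, 12609 and 12598 were higher in these pairs. The median differences of the 52 were 0.07, 0.26 and 0.17. Over all probe sets they were -0.01, 0.02 and 0.02. For replicate 1 the median over the photosystem II genes was -0.08, and over the NDH genes -0.02. In the other pairs both were above 0, between 0.09 and 0.17. In 21 of the 52 genes the compound array was higher in all 3 pairs, where 21.2% of all probe sets were. The 21 are 40.4% of the members. In 1 gene, ndhD, it was lower in all 3, where 16.5% of all probe sets were. Groups did not overlap in 8 genes, all higher with the compound, which is 15.4% of the members against 5.37% of all probe sets. In 0 members all compound values were lower, where 4.37% of all probe sets had this order. The 8 were petN, ndhH, ndhJ, ndhK, rpoC1, rbcL, accD and ycf4.

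**Figure D3:**
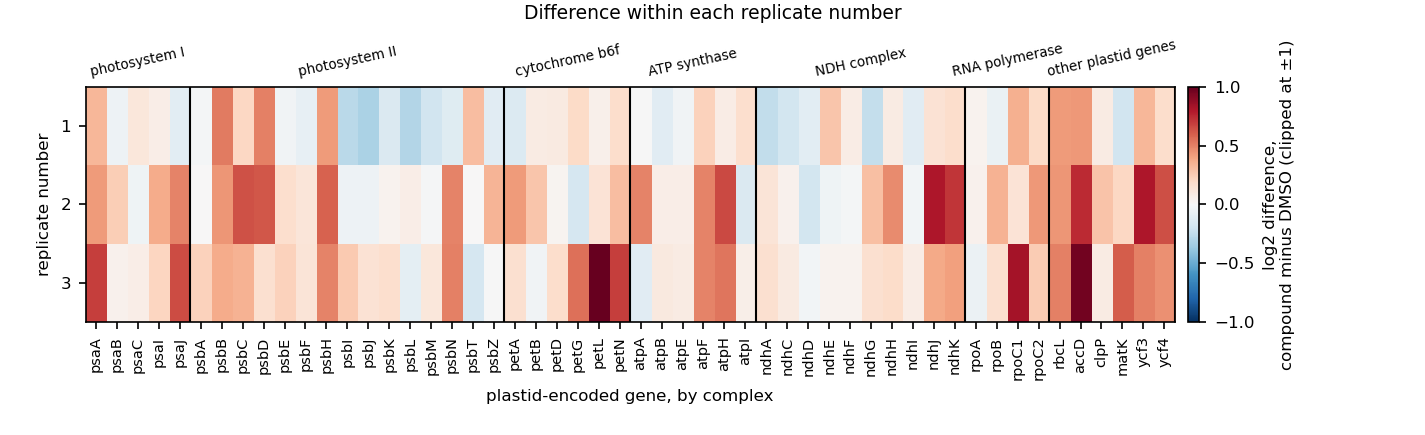
Log2 difference between the compound and the DMSO array of the same replicate number, for each of the 52 plastid genes (columns, by complex) and replicate numbers 1 to 3 (rows), with colours clipped at the ends of the scale. Red means higher with the compound: 29, 42 and 45 of the 52 genes are above 0 in replicates 1, 2 and 3. Of all 22746 probe sets, 11010, 12609 and 12598 are.

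The calls in the block fit changed when a pair was left out. Without replicate 1 of both groups the fit called accD and atpH, without replicate 2 accD alone, and without replicate 3 none of the 52, while it called 516, 743 and 205 of all probe sets. In those fits 24, 17 and 13 of the 52 had an unadjusted p below 0.05, all higher with the compound. Of all 22746 probe sets, 3372, 3260 and 2480 had such a p in the same fits, counted in either direction. The folds of the 6 genes moved less than their calls, while 1 of 2 residual degrees of freedom was lost. rbcL was at 0.47, 0.46 and 0.44 without replicate 1, 2 and 3, psbH at 0.54, 0.46 and 0.51, psbB at 0.41, 0.45 and 0.48 and accD at 0.85, 0.70 and 0.59. psaA was at 0.56, 0.51 and 0.38, and ycf3 at 0.66, 0.42 and 0.57. Without single arrays and with no block, the lowest values were 0.27 for psaA, 0.24 for psbB and 0.32 for psbH, each without compound replicate 1, and 0.23 for ycf3 without DMSO replicate 2. With the replicate number as a random effect, accD and rbcL passed (adjusted p = 0.0376 and 0.0253). The 6 genes kept a log2 fold change above 0 in all 18 alternatives run, between 0.23 and 0.92. That shared sign is no separate support, because the 6 were picked by the block fit and were higher in all 3 pairs. Several alternatives also leave the fold itself unchanged.

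The differences were mostly found in the middle of the intensity range, as was noticed after the values had been seen. Of the 26 members with a mean between 5 and 10, 25 had the higher mean with the compound, 6 passed with the block, and the median log2 fold change was 0.42. Over the 12028 probe sets of all kinds in that range 6445 had the higher mean with the compound, 2.88% passed as higher with the block, and the median was 0.01. Of the 19 members with a mean above 10, 13 were higher with the compound, 0 passed (limma, 0 at an unadjusted p below 0.05 with or without the block), and the median was 0.02. Of the 1295 probe sets of all kinds above 10, 1.31% passed as higher with the block, so 0 of 19 is near that share, and their median was -0.004. All probe sets spread most at means of 5 to 7, where the 95th percentile of the log2 fold change was 0.42, against 0.21 at 12 to 13. The 7 members with a mean below 5 had a median of 0.10. The highest value on any array was between 14.02 and 14.11, and whether the brightest probe sets had reached the limit of the scanner was not tested.

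**Figure D4:**
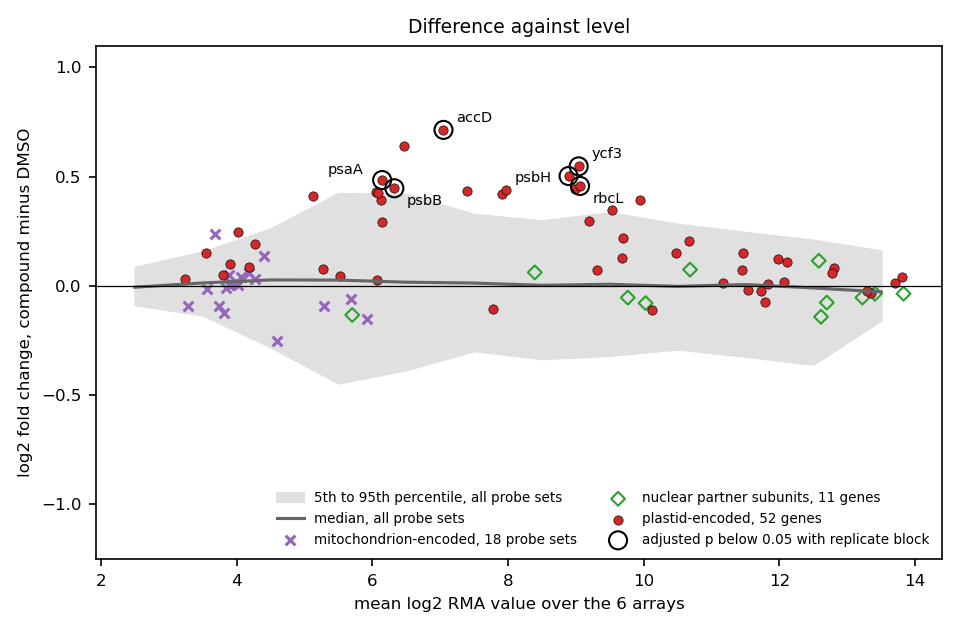
Log2 fold change (compound minus DMSO) against the mean log2 RMA value over the 6 arrays for the 52 plastid genes, 18 mitochondrial probe sets and 11 nuclear partner genes, over the spread of all tested probe sets. Plastid genes between 5 and 10 lie mostly above the median of all probe sets, and those above 10 lie around 0.

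Genes of 1 transcription unit did not always read alike. The unit psbB, psbT, psbH, petB and petD spans 6 genes in the gene table. In it psbB and psbH passed with the block while psbT was at 0.05, petB at 0.11 and petD at 0.10. In the unit psaA and psaB the log2 fold changes were 0.48 and 0.08, as given above. In the unit psbD, psbC and psbZ they were 0.43, 0.39 and 0.07. In the unit ndhC, ndhK and ndhJ they were -0.02, 0.43 and 0.44. In the unit atpI, atpH, atpF and atpA they were 0.03, 0.42, 0.41 and 0.13. In the unit rpoB, rpoC1 and rpoC2 they were 0.15, 0.44 and 0.29. In the unit accD, psaI, ycf4 and petA they were 0.71, 0.22, 0.42 and 0.15. Of the members with smaller differences psaB, petB, psbZ, ndhC and petA had a mean value above 10, but psbT, atpI, atpA and psaI had means of 5.52, 6.08, 9.68 and 9.69. petD and rpoB, with means of 3.90 and 3.55, lay below the lower quartile of every array, so no difference from their neighbours can be judged. By contrast, the paired genes atpB and atpE (0.02 and 0.04), psbK and psbI (0.02 and -0.02) and the unit psbE, psbF, psbL and psbJ (-0.11 to 0.12) differed little throughout. None of these differences between neighbours was tested, and values of different probe sets cannot be set against each other as levels.

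The DMSO arrays differed among themselves. DMSO replicate 1 had the highest value of its group in 33 of the 52 genes and DMSO replicate 2 the lowest in 34. The median deviation from each gene's mean was 0.06, -0.19 and -0.04 on DMSO replicates 1, 2 and 3 and 0.11, 0.00 and 0.12 on the compound arrays. Over the 52 genes the deviations of same-numbered arrays from their group means correlated at 0.57, 0.61 and 0.51, and those of arrays with different numbers at -0.54 to -0.10. These values describe 52 points that share arrays and transcription units. Since the deviations of a group sum to 0, the signs of the cross values are tied to those of the same-numbered ones.

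**Figure D5:**
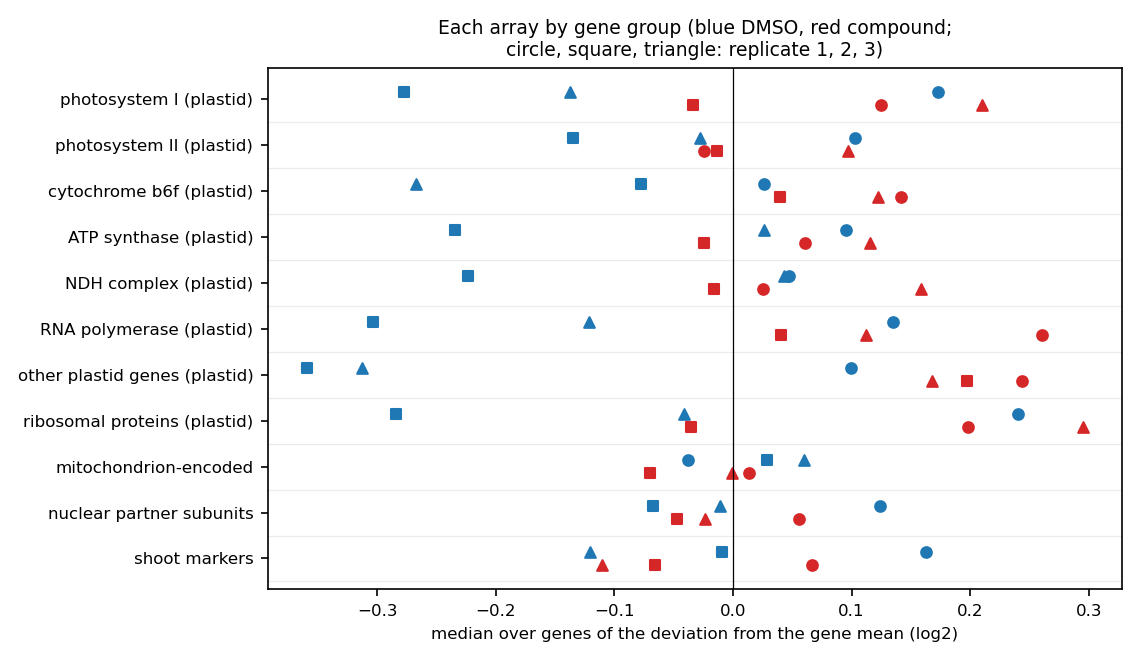
Median over the genes of each group of the deviation from the gene's mean over the 6 arrays (log2), for each array (blue DMSO, red compound, symbols by replicate number). The lowest point of each plastid group is a DMSO array of replicate 2 or 3. The mitochondrial, nuclear partner and shoot marker groups stay within 0.17 of 0, and so does photosystem II among the plastid groups.

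Genes around the plastid genome gave the following. Of 21 plastid genes of ribosomal proteins, outside the 55, 15 were measured. None passed in either fit, with 0 and 4 at an unadjusted p below 0.05 without and with the block, and 14 were higher with the compound (median 0.20). The 2 with the smallest p without the block were rps15, at 0.20 (SE 0.10), and rps2, at 0.57 (SE 0.35). With the block they were rpl14, at 0.49, and rps2. Mitochondrial transcripts also lack stable poly(A) tails. Their 18 probe sets, annotated to 11 genes, had a median log2 fold change of -0.002, and 0 passed in either fit, with 0 at an unadjusted p below 0.05 without the block and 2 with it. 9 were higher and 9 lower with the compound, from -0.25 for a probe set of nad1 to 0.24 for matR. Of the 18, 6 were read below the lower quartile of every array. The means of the 18 over the 6 arrays ran from 3.29 to 5.92, below those of the 6 plastid genes that passed with the block. The 18 are thus not matched in level to those genes.

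The nuclear genes whose products join the plastid subunits were measured by 11 of 80 list entries. None passed in either fit, with 0 at an unadjusted p below 0.05 in both, and 3 were higher with the compound, with a median of -0.05. Their means over the 6 arrays ran from 5.70 to 13.83, and most lay above 10. The plastid members above 10 had a median of only 0.02, so the 2 sets are not matched in level. PSAE-1 and PSAN of photosystem I were at -0.04 and -0.05. PSBW and PSBY of photosystem II were at -0.14 (SE 0.08) and -0.08. ATPC1 and ATPC2, genes of the gamma subunit of the ATP synthase, were at 0.12 and -0.13. The NDH genes NdhL, NdhN and NdhS were at -0.08, 0.06 and -0.05, and RCA, the activase of Rubisco, was at -0.04. The nuclear genes of plastid RNA processing were read by 11 of 58 entries, mostly editing factors. None passed in either fit, with 0 at an unadjusted p below 0.05 in both. Their median was 0.02, with OTP84 the highest at 0.16 (SE 0.11) and OTP85 the lowest at -0.11 (SE 0.12). Lists of sigma factors and other plastid transcription proteins and of nuclear-encoded plastid ribosomal proteins matched no named single-gene probe set by symbol. They were not analysed here, which does not mean that the array lacks these genes.

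The few markers of green tissue that were measured moved little. Of 40 list entries for shoot and mesophyll 5 were measured, namely LHCB4.1, LHCB4.2, LHCB4.3, PRK and SBPASE. None passed, with 0 at an unadjusted p below 0.05 without the block and 1, LHCB4.2, with it. LHCB4.2 was at -0.23 (SE 0.12) and LHCB4.3 at -0.09 (SE 0.23), and none of the 5 was near the lower quartile. The summed linear signal of the 5 ranged from 24619 to 29287 with DMSO and from 23945 to 27797 with the compound. Of 39 list entries for root 4 were measured. Among these the root hair expansin genes EXPA18 and EXPA7 fell in limma without the block, at -1.81 (SE 0.20, adjusted p = 0.0266) and -2.10 (SE 0.26, adjusted p = 0.042). The sum of the 4 ranged from 6745 to 8659.6 with DMSO and from 6311 to 7327 with the compound. That sum is mostly PYK10, which read between 12.59 and 12.996 and was at -0.10 (SE 0.12), so it says little of the other 3. With the block ATL63 also rose, at 0.43 (SE 0.14, adjusted p = 0.0385). Their part in the plastid result was not tested. As a sign of RNA quality, the actin control read 2.62 higher at its 3' than at its 5' end with DMSO and 2.64 higher with the compound. The same excess was 1.197 and 1.02 for GAPDH, and ubiquitin gave 1.58 and 1.52. By exact permutation, two-sided, p was 1, 0.2 and 0.7 in this order (1, 0.6 and 1 adjusted over the 3), and 0.1 is the smallest that 3 against 3 arrays can give. These tests leave out the pairing, and the GAPDH excess was lower with the compound in all 3 pairs, at 0.94, 1.01 and 1.105 against 1.15, 1.03 and 1.41. Its part in the plastid values was not tested. The probe set of 25S ribosomal RNA, another transcript without a poly(A) tail, read 11.46, 11.58 and 11.98 with DMSO and 11.32, 11.66 and 11.88 with the compound. The groups overlapped, replicate 3 was the highest of each, and the mean difference was -0.05 (exact two-sided permutation p = 0.8).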

How the data were processed

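The authors deposited 1 log2 value for each probe set and array. RMA is the only tool in the submitters' processing notes, and its version is not given in the sources used here. RMA gives the probe intensities of all arrays the same quantiles, so a change common to most transcripts is removed. Per the labels' protocols, 100 ng of total RNA was labelled by 3' in vitro transcription. The file gave no detection calls, and array medians lay between 5.75 and 5.79.

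Of the probe sets, 64 controls were left out and 22746 tested. Genes were named from the platform annotation and placed on the plastid genome through the TAIR10.1 gene table, with no coordinates used. A name was taken from the 13513 probe sets with 1 gene, while 503 had several and 8730 were unnamed here. The groups were set against each other in limma 3.58.1 under R 4.3.3, with lmFit, eBayes and no term besides treatment. The script was tested on simulated data. The number of arrays limits the precision.

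Same-numbered arrays deviated together from their group means over all probe sets (r = 0.727, 0.728 and 0.743, across probe sets that are not independent). All 3 exceeded the limit of 0.1, so blocked values are printed beside each result they change. The labels do not say what same-numbered arrays shared.

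The members, lists and tests were chosen with earlier results of these data known. The rule named the members called in either fit, the member with the highest mean and the one with the largest difference in each group, and 12 fixed genes, of which 1, ycf1, was not measured. It also took the 2 genes of smallest p of each other list. Further members were named after their values were seen, and so were the transcription units and intensity ranges. TPI was left out of the shoot list because the measured gene is the cytosolic form. Alternatives were the replicate block (fixed and random), leaving out arrays or pairs, low-value filters, centring, other prior variances and array weights.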

Additional observations from a re-analysis of the deposited data

How the results depend on the processing

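No plastid gene passed in any fit run without a block. The replicate block gave 6 plastid genes and 865 probe sets in all, and the block as a random effect gave 2 and 491. The block without replicate 1, 2 or 3 of both groups gave 2, 1 and 0 plastid genes and 516, 743 and 205 probe sets. The fits without 1 array gave 0 plastid genes and 0 to 76 probe sets. The median log2 fold change of the 52 genes, 0.14, ranged from 0.05 (without DMSO replicate 2) to 0.23 (without DMSO replicate 1) and kept its sign throughout. Differences near 0 changed sign: without 1 array psaB ranged from -0.038 to 0.19, psbA from -0.013 to 0.13, psbM from -0.14 to 0.062, petL from -0.0038 to 1.00, atpB from -0.037 to 0.050, atpE from -0.011 to 0.072, ndhI from -0.10 to 0.061 and rpoA from -0.16 to 0.16. With the block and without replicate 1, psbM was at 0.051, ndhI at 0.024 and rpoA at -0.0072. Without replicate 2, psaB was at -0.0012, atpB at -0.0092 and rpoA at -0.011, and without replicate 3, psbA was at -0.0089 and atpB at -0.025. Centring on nuclear genes put rpoA at -0.0065. The causes were not tested. Fits without a pair have few residual degrees of freedom, and values near the lower quartile cannot be told from background. No member had a second probe set, so averaging probe sets was not run.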

Other observations

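Among the plastid genes of ribosomal proteins, some varied widely between replicate numbers. rpl16 read 10.54, 7.92 and 9.61 on DMSO replicates 1, 2 and 3 and 10.81, 9.45 and 10.29 on the compound arrays. rpl14 read 10.15, 8.05 and 9.78 with DMSO and 10.40, 8.88 and 10.16 with the compound. rpl22 read 11.41, 9.35 and 11.05 with DMSO and 11.41, 10.18 and 11.30 with the compound. In each of these genes replicate 2 was the lowest of both groups. rps19, rps3 and rpl36 had their lowest value on replicate 2 of both groups as well. The log2 fold changes of rpl16, rpl14 and rpl22 were 0.83 (SE 0.68), 0.49 (SE 0.63) and 0.36 (SE 0.59), and none passed with the block (adjusted p = 0.1, 0.0888 and 0.303). These genes were picked after their values were seen.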
